A study of Mus musculus with 2 samples.

Results

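Transcripts of 10 mouse genes that copy DNA or supply its building blocks were read in spleen RNA: the replicative helicase subunits Mcm2, Mcm3, Mcm5, Mcm6 and Mcm7, the sliding clamp Pcna, the ribonucleotide reductase subunits Rrm1 and Rrm2, and Tyms and Tk1, which supply thymidine nucleotides. They were chosen by name and function, with earlier results of these data known. Every probe set of the array whose annotated symbol was one of them was taken. This gave 15 probe sets of 12488. Of these, 13 named a single gene and covered 9 of the 10 genes, out of 8251 genes measured in this way. The other 2 named both Tyms and its pseudogene Tyms-ps, so that no signal could be given to Tyms alone.

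The RNA was total RNA of mouse spleen bought from Clontech, hybridised to 2 oligonucleotide arrays called array 1 and array 2 here. The labels name no strain, age, sex, treatment or number of animals, and both arrays cite the same catalogue item. The arrays thus form 1 group, nothing was compared between conditions, and no p-value was computed. The spread between them may be technical. In RNA of a whole organ, fewer cells of a type and less RNA per cell cannot be told apart.

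Before a cell copies its genome, the origin recognition complex, Cdc6 and Cdt1 load the ring-shaped Mcm helicase on DNA in G1 phase, and Cdc45 and the GINS complex switch it on in S phase. Pcna then encircles DNA and tethers the polymerases, while ribonucleotide reductase turns ribonucleotides into deoxyribonucleotides. Many of these genes are switched on together at the G1 to S transition by E2F transcription factors, which the retinoblastoma protein family holds in check. The mouse spleen is known for dividing red cell precursors in its red pulp and for lymphocytes that divide on activation.

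Signals are intensities on the deposited linear scale. Bright here means above the 60th percentile of all probe sets but controls, 346.32 on array 1 and 342.22 on array 2, in both hybridisations. The background was taken from 15 bacterial control probe sets, whose targets are foreign to mouse. The highest of them gave 95 on array 1 and 76.2 on array 2. A gene with several single-gene probe sets was represented by the one with the highest mean log2 signal. Probe sequences bind with unequal strength, so genes are not ranked by signal.

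The promoters of these genes show what some of them share beyond function. RefSeq promoter windows of assembly GRCm38.p6, each of 300 bases with 250 before and 50 from the annotated transcript start on, were found for all 10 genes. Mcm7 had a window at each of 2 starts. They were searched on both strands for E2F-type letters, here TTTCCCGC, TTTCGCGC, TTTGCCGC or TTTGGCGC, the core known to be bound by E2F factors, and for the box CCAAT, known to be bound by the factor NF-Y. The last 200 bases before the start are shown for 3 helicase genes that held the E2F-type letters there, with the matches to both motifs in capitals. The stretches lie at chr8:75109309-75109508 on the plus strand for Mcm5, at chr1:128359706-128359905 on the minus strand for Mcm6 and at chr5:138171884-138172083 on the minus strand for Mcm7.
Mcm5: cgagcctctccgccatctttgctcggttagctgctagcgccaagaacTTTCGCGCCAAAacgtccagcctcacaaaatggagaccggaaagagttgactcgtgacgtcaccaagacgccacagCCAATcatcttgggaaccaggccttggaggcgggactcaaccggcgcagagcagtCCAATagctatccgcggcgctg
Mcm6: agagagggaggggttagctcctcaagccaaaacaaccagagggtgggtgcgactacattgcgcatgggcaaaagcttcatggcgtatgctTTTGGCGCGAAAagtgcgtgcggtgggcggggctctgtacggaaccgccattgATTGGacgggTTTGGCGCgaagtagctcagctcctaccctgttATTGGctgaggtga
Mcm7: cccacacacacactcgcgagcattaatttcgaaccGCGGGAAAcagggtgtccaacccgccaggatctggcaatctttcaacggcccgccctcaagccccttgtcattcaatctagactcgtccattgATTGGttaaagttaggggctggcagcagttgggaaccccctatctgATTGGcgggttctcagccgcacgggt

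In Mcm5, 2 E2F-type matches overlapped, one on each strand, and began 153 and 149 bases before the start. In Mcm6, 2 overlapping matches began 110 and 106 bases before the start and another began 47 bases before it. In Mcm7, 1 match began 165 bases before the start used here and another lay 16 bases after it, while the window of the other start held none. Mcm3 held 2, both after the start, at 19 and 38 bases. Thus 4 of the 5 helicase genes held the letters, and Mcm2 was the one without them. None of the windows of Pcna, Rrm1, Rrm2, Tk1 and Tyms held them. For comparison, 3 of these genes are shown over the same 200 bases, where only CCAAT boxes are in capitals: Pcna at chr2:132253181-132253380 on the minus strand, Rrm1 at chr7:102441495-102441694 on the plus strand and Rrm2 at chr12:24708054-24708253 on the plus strand.
Pcna: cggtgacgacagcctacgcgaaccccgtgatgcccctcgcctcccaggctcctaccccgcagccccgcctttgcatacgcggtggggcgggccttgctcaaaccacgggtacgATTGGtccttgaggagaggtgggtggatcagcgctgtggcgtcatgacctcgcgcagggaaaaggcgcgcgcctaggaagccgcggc
Rrm1: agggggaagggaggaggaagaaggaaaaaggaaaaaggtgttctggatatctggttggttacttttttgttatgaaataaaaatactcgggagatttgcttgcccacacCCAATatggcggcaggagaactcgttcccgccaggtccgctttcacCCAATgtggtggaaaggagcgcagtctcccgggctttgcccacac
Rrm2: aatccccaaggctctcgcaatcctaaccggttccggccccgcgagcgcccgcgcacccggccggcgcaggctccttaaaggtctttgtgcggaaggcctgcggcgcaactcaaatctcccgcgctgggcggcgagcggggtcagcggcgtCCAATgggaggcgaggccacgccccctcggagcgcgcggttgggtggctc

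CCAAT boxes were present in 8 of the 10 genes. Mcm3 and Mcm5 held 3 each, as did the window of Mcm7 shown above. Mcm6 and Rrm1 held 2 each, and Mcm2, Pcna and Rrm2 held 1 each. That of Mcm2 began 175 bases before the start, and all others lay closer to it, from 117 bases before it in Mcm3. The windows of Tk1 and Tyms held neither motif in these letters, which says nothing on other forms of the sites or on sites outside the windows. In Mcm7 a CCAAT box shared its first base with the end of an E2F-type match.

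**Figure D1:**
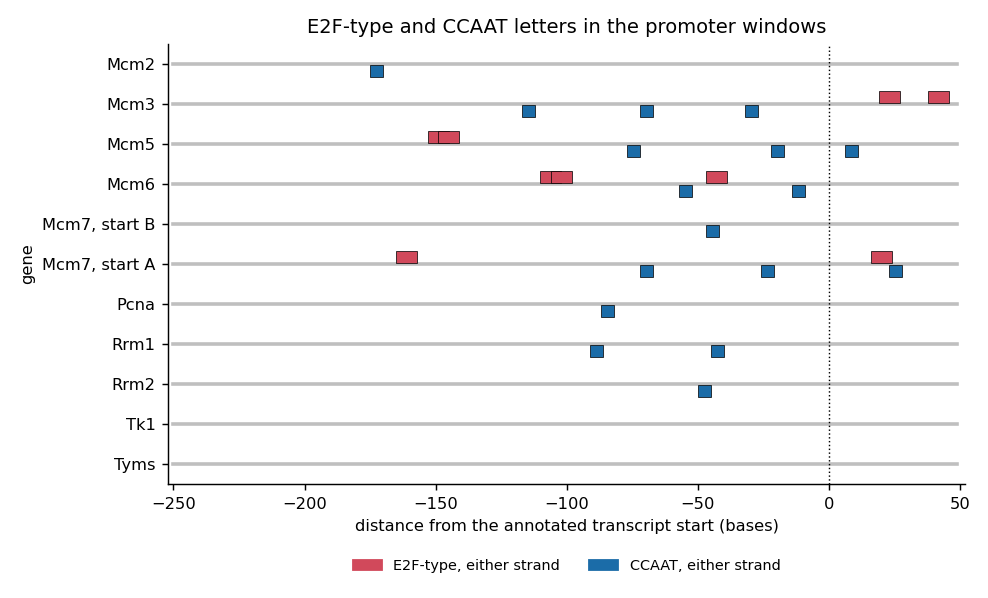
Positions of E2F-type letters (red) and CCAAT boxes (blue) in the promoter windows of the 10 genes, in bases from the annotated transcript start, with matches on either strand drawn; Mcm7 has 2 annotated starts. E2F-type letters appear in Mcm3, Mcm5, Mcm6 and Mcm7 only, and CCAAT boxes in 8 of the 10 genes.

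Set beside other promoters, E2F-type letters stood in 4 of the 10 genes, or 40.0%, against 2.6% of 27025 genes with a window and 4.32% of the 6576 that a single-gene probe set also measured. CCAAT stood in 80.0% of the 10 genes, against 41.1% and 42.5%. The member windows had a median GC content of 57.3%, from 47.0% in Rrm1 to 71.3% in Rrm2. This lay between the median of all windows, 52.7%, and that of the windows of the genes measured singly, 59.7%. The 6 related lists were counted over their genes with a window, measured on the arrays or not. The 19 mitosis genes here are thus not the same 19 that were measured. The E2F-type letters stood in 7 of 16 origin and helicase genes. Of these, Cdc6, Cdt1 and Orc1 were measured, while Gins3, Mcm8, Mcmbp and Orc3 had no single-gene probe set. The letters stood in 7 of 20 polymerase and clamp genes, 4 of 10 E2F and Rb genes and 3 of 10 chromatin copying genes. Only 1 of 18 other nucleotide supply genes and 1 of 19 mitosis genes held them. CCAAT ran differently, with 17 of 19 mitosis genes, 8 of 10 chromatin copying genes and 9 of 16 origin and helicase genes. It stood in 10 of 20 polymerase and clamp genes, 6 of 18 other nucleotide supply genes and 3 of 10 E2F and Rb genes. A match is a description of the letters and not a shown binding site, and no test was made of these shares.

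**Figure D2:**
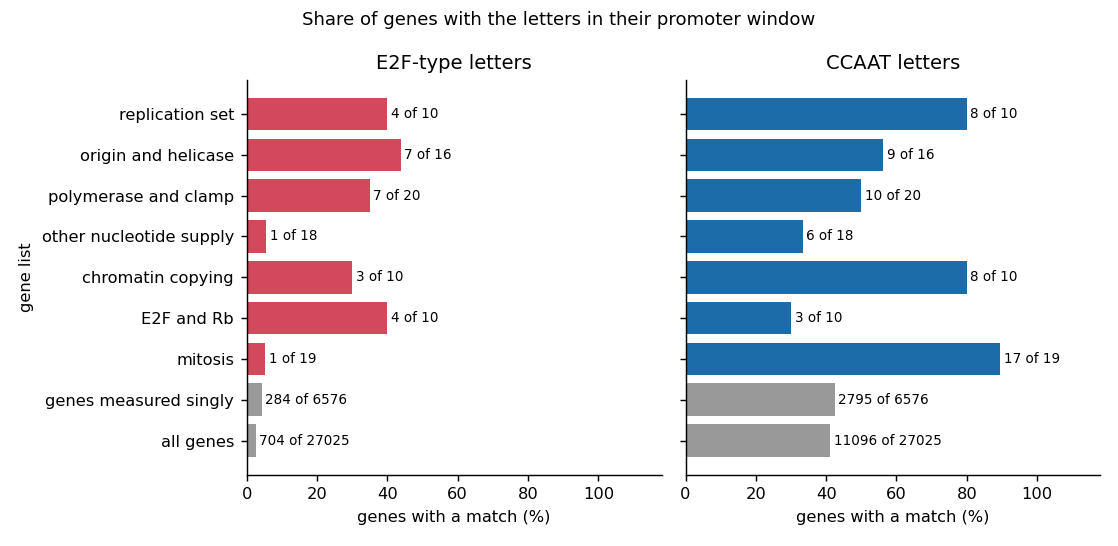
Share of genes, in percent, whose promoter window holds E2F-type letters (left) or CCAAT (right) on either strand, for the replication set of 10 genes, 6 related lists and, in grey, the genes measured by a single-gene probe set and all genes with a window; the numbers beside the bars are counts. The replication set reaches 40.0% and 80.0%, against 2.6% and 41.1% of all genes.

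On the arrays, 8 of the 9 genes with a single-gene probe set were bright, against 45.2% of all 8251 genes. The exception was Mcm6. The median log2 signal of the 9 genes was 10.19, against 8.29 over all genes. Of the 13 single-gene probe sets, 9 were bright. The share of all single-gene probe sets that were bright was not computed. The 45.2% is of genes, each read by its highest probe set, and is no background for this count. On both arrays 10 of the 13 exceeded every bacterial control, near the share of 67.2% among all 10833 single-gene probe sets. Each of the 8 bright genes also lay above the 75th percentile of both arrays, which 28.5% of all genes did.

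Mcm2, the subunit that also carries a histone-binding tail and lies at the gate of the ring, gave 1113.6 on array 1 and 1076.6 on array 2 with probe set 93112_at, or 1095 ± 26.2 (SD, n = 2 arrays here and below). Mcm5, its neighbour at that gate, gave 4155.0 and 4140.2 with 100156_at, or 4148 ± 10.5, and these arrays were thus within 1.00-fold of each other. Mcm3, which pairs with Mcm5 in the ring, gave 1146.3 and 1188.1 with 160496_s_at, or 1167 ± 29.6. All 3 were far above the cutoff on both arrays and nearly equal between them. A further probe set of Mcm3, 100062_at, was bright as well, at 484.5 and 583.8.

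Mcm7, part of the helicase core with Mcm4 and Mcm6, gave 1807.6 on array 1 and 1363.1 on array 2 with 93356_at, or 1585 ± 314. It was bright on both, but had the largest gap between arrays among the bright members, a log2 difference of -0.41, array 2 minus array 1. When probe sets were split into 4 equal groups by mean signal, 5.12% of the 3105 in the top group were at least as far apart. Mcm4, which was not among the 10 genes and completes the ring, gave 1132.0 and 1115.7 and was bright.

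Mcm6 stood apart from the other subunits. Its only probe set, 100149_at, gave 11.2 on array 1 and 23.6 on array 2. Both values lay below the floor of 41.8 that was put under dim signals and near the median of the bacterial controls, 20.6 and 22.9. The probe set was therefore not above background on either array, and neither a level nor a change can be read from it. So 5 of the 6 subunits of the helicase ring were bright and the reading of the other one was at background. Whether the probe set can read its transcript was not tested, since no other probe set names Mcm6.

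**Figure D3:**
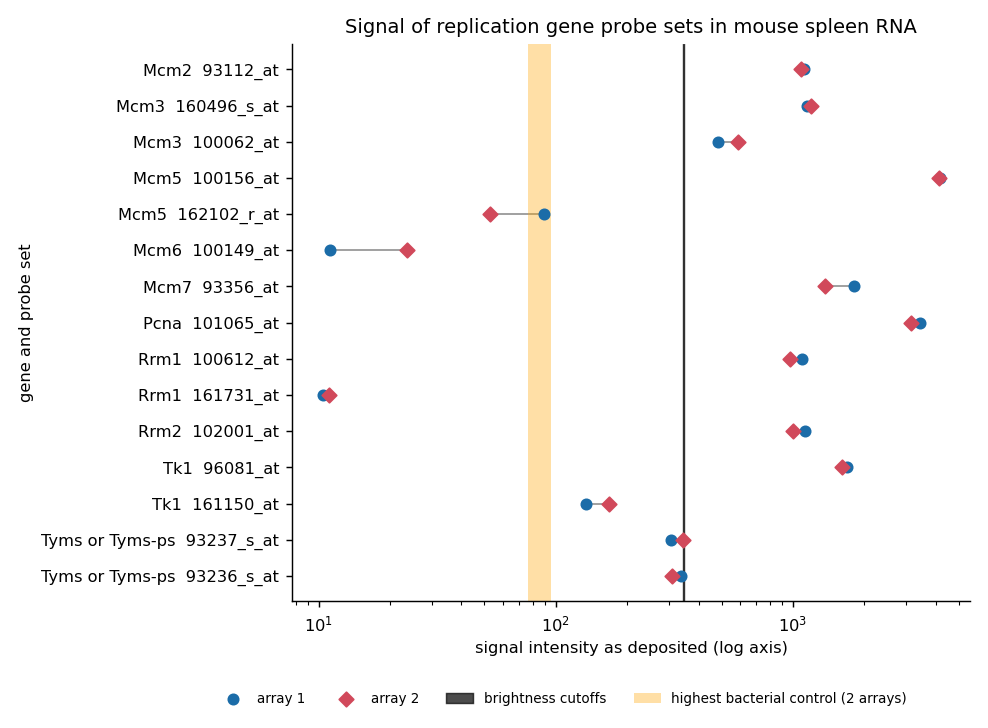
Signal intensity as deposited (log axis) of the 15 probe sets on array 1 (circles) and array 2 (diamonds), with the brightness cutoffs as a vertical line and the highest bacterial controls of the 2 arrays as an orange band. The bright probe sets lie at 484.5 or more on both arrays, whereas Mcm6 and a probe set of Rrm1 lie left of the orange band.

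Pcna, the clamp that holds polymerases and many repair factors on DNA, gave 3421.6 on array 1 and 3134.0 on array 2 with 101065_at, or 3278 ± 203. It was bright on both and somewhat higher on array 1, by a log2 difference of -0.13. Of the same top group of probe sets 43.1% were at least that far apart, so the gap was an ordinary one for these arrays.

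Both subunits of ribonucleotide reductase were bright. Rrm1, the large subunit with the catalytic and regulatory sites, gave 1096.3 and 967.6 with 100612_at, or 1032 ± 91.0. Rrm2, the small subunit with the tyrosyl radical, whose supply is known to be tied to S phase, gave 1123.7 and 999.4 with 102001_at, or 1062 ± 87.9. Both were higher on array 1, with log2 differences of -0.18 and -0.17. In the top signal group 28.0% and 30.4% of probe sets were at least as far apart.

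Thymidine nucleotides are made from scratch by Tyms, thymidylate synthase, and salvaged by Tk1, the cytosolic thymidine kinase. Tk1 was bright, at 1684.8 and 1606.6 with 96081_at, or 1646 ± 55.3. The probe sets that name both Tyms and Tyms-ps gave 338.2 and 307.6 for 93236_s_at, and 304.7 and 344.1 for 93237_s_at. They exceeded every bacterial control but sat just at the brightness cutoff, which 93237_s_at passed on array 2 alone. How much of this signal came from Tyms is not known.

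Probe sets of the same gene could lie on both sides of the cutoff. Of the 4 genes with several single-gene probe sets, Mcm3 had both bright, and 3 had one bright and one not. For Rrm1, 161731_at gave 10.4 and 11.1, at background, while 100612_at was bright. For Mcm5, 162102_r_at gave 89.3 and 52.6, both below the brightest bacterial control, while 100156_at was bright. For Tk1, 161150_at gave 134.5 and 167.3, above the bacterial controls but not bright, while 96081_at was. Such splits were common: of 1182 genes with several single-gene probe sets and a bright one among them, 74.6% also had one that was not bright. The suffix _r_at marks relaxed probe selection and _s_at a probe set that can read several transcripts.

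Between the arrays, none of the 8 bright members differed by more than 2-fold, and of all 3731 bright genes 0.107% did. Mcm6 is left out here because both its values lay under the floor. The 8 were between 1.00-fold and 1.32-fold apart. Their pooled SD, that of a single array on the log2 scale, was 0.125, beside 0.152 over all bright probe sets and 0.142 in the top signal group. Of the 8, 7 were higher on array 1 and Mcm3 was higher on array 2, while 50.1% of all bright genes were higher on array 1 and 49.9% on array 2. The median log2 difference of the 8 was -0.10, and Mcm5 was among the 7 by only -0.0035. For the mitosis list, 10 of 16 bright genes were higher on array 1, with a median of -0.07. These gaps are the spread within 1 group.

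**Figure D4:**
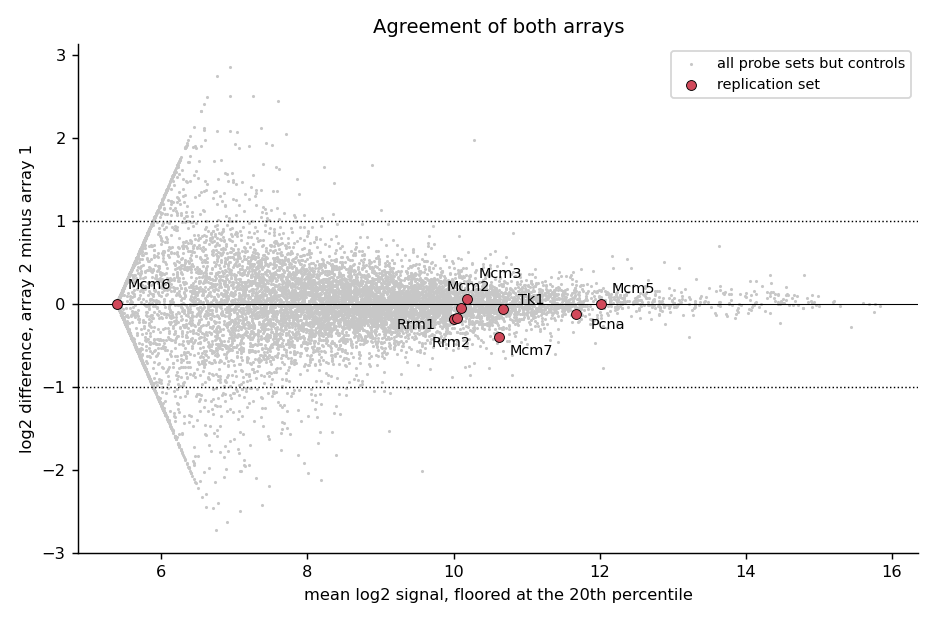
Log2 difference between the arrays (array 2 minus array 1, centred on the bright probe sets) against mean log2 signal for all probe sets but controls (grey) and for the probe sets that represent the 9 measured genes (red); dotted lines mark 2-fold. The genes lie inside the grey cloud, Mcm7 lowest at -0.41, and Mcm6 sits at the floor on the left, where both arrays hold the same floored value.

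Other genes of replication, the E2F and Rb regulators and genes of mitosis were read from 6 lists of 108 genes in all. Of these genes 90 were measured, and 59 were bright, or 65.6%. This total includes the mitosis list, which had the highest share of the 6 lists, 84.2%. The share to set beside the 65.6% and each list below is 45.2% of all genes. Among the origin and helicase genes 7 of 14 were bright, close to the share of all genes, with a median log2 signal of 8.54. Mcm10, which helps to start the helicase, gave 239.6 and 153.8. Orc1 and Orc2, subunits of the origin recognition complex, gave 206.4 and 127.8, and 82.3 and 142.9. None of these 3 was bright, and Orc2 was below the highest bacterial control on array 1. The other measured subunits of that complex, named after their values were seen, were bright: Orc4 at 416.6 and 431.0, Orc5 at 530.6 and 480.4, and Orc6 at 627.1 and 869.6. In all, 11 of the 14 genes exceeded every bacterial control, as did 73.9% of all genes.

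Polymerase and clamp genes were bright in 14 of 22 cases, or 63.6%, with a median of 9.26. Pola1, the catalytic subunit of the polymerase that starts new strands, gave 358.2 and 389.9, and its partner Pola2 gave 860.7 and 814.6. Both were bright. The primase subunits of the same complex were not, Prim1 at 209.4 and 193.6 and Prim2 at 185.6 and 218.3.

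Nucleotide supply genes other than the members were bright in 12 of 16 cases, with a median of 8.87. Dck, the kinase that salvages deoxycytidine, gave 2010.3 and 2057.0. The other named ones lay close above the cutoff: Rrm2b, the small reductase subunit used outside S phase, at 464.7 and 373.8, the mitochondrial thymidine kinase Tk2 at 421.4 and 407.8, and thymidylate kinase Dtymk at 406.6 and 391.4. The 4 that were not bright were Dut, which removes dUTP, at 143.2 and 132.3, the one-carbon enzyme Shmt1 at 269.0 and 282.2, Nme1 at 285.8 and 256.0, and Ppat, the first enzyme of purine synthesis, at 87.1 and 81.4. Ppat was below the highest bacterial control on array 1. Dck, Rrm2b and Nme1 were read here by probe sets with the suffix _f_at. With suffixed probe sets left out, 9 of 12 measured genes of this list were bright, against 43.4% of all genes.

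Genes that copy chromatin along with DNA were bright in 7 of 10 cases, or 70%, with a median of 9.24. Dnmt1, which copies DNA methylation, gave 2127.4 and 2168.5. Chaf1a, a subunit of the histone chaperone CAF-1, gave 472.3 and 444.9, and the histone chaperone Asf1b gave 540.1 and 454.0. Chaf1b at 279.5 and 311.2, the histone chaperone Nasp at 248.5 and 170.3 and the helicase-like Hells at 139.4 and 174.8 were not bright.

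Of the E2F and Rb family regulators 3 of 9 were bright, or 33.3%, against 45.2% of all genes. Their median was 8.28, beside 8.29 for all genes. Which share was larger depended on the cutoff. A 75th percentile cutoff left 1 of 9 bright, against 28.5% of all genes. A 50th percentile cutoff gave 6 of 9, against 55.7%, and the highest bacterial control gave 8 of 9, against 73.9%. The counts thus do not show that this list was dimmer than all genes. E2f8, an E2F family repressor, gave 502.2 and 546.8. Tfdp1, the binding partner of E2F factors, gave 1216.4 and 1880.7, and Rbl1, a relative of the retinoblastoma protein, gave 545.5 and 446.7. E2f8 and Tfdp1 were read here by probe sets with the suffix _r_at. With suffixed probe sets left out, 1 of 7 measured genes of this list was bright, against 43.4% of all genes. The log2 difference of Tfdp1 between the arrays was 0.63, the largest among the bright genes of the 6 lists. The activator E2f1 gave 131.6 and 158.2, E2f3 gave 37.4 and 78.6, and E2f5 gave 238.6 and 239.7. These last 3 were not bright, and E2f3 was below the highest bacterial control on array 1.

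Mitosis genes were bright in 16 of 19 cases, or 84.2%, with a median of 9.66. The proliferation marker Mki67 gave 2657.7 and 2659.0 and the topoisomerase Top2a gave 767.9 and 927.2. The cyclins Ccna2 and Ccnb2 gave 1989.2 and 1683.7, and 4072.7 and 3425.9. The 3 that were not bright were the checkpoint kinases Bub1 at 158.7 and 198.3 and Ttk at 148.1 and 246.5, and Nek2 at 544.4 and 290.4, which passed the cutoff on array 1 alone.

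**Figure D5:**
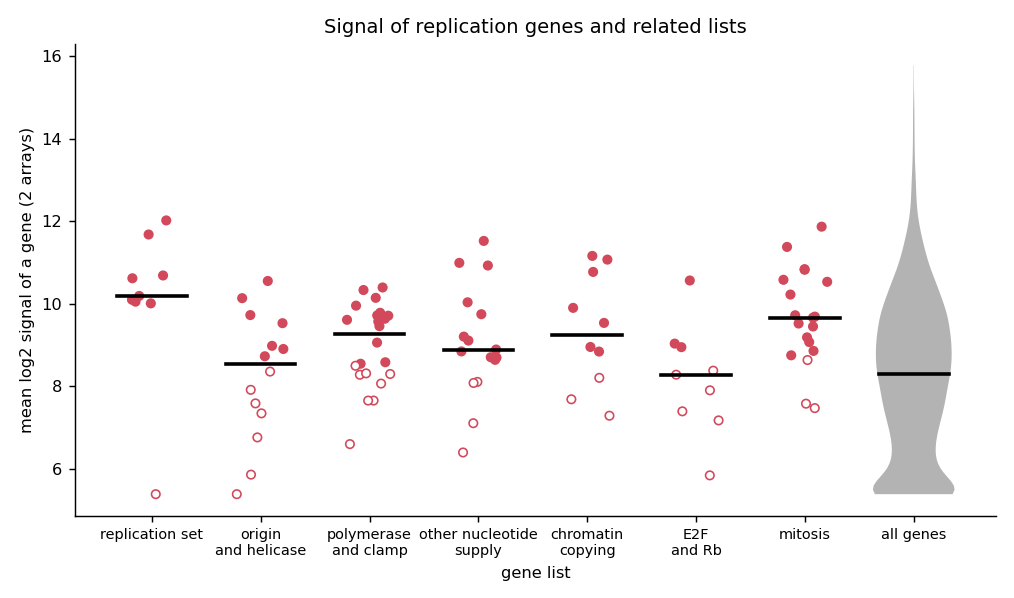
Mean log2 signal of each measured gene over 2 arrays (points, filled where bright on both arrays and open where not) by list, with the list's median as a black bar, and the distribution over all genes in grey. The replication set has 8 filled points and Mcm6 at the floor; medians run from 8.28 for E2F and Rb genes to 10.19 for the replication set, beside 8.29 for all genes.

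Markers of cells of the spleen were bright in this RNA. All measured ones passed for B cells (4 of 4), T cells (5 of 5), red cell formation (4 of 4) and granulocyte precursors (5 of 5). Of all genes 45.2% were bright by the same rule. All 8 pancreas genes on a further list were bright as well, from 908.4 to 25030.4, beside 3 of 4 liver genes and 1 of 5 genes of testis germ cells. The RNA thus held signals of pancreas genes on both arrays, and their part in the values above was not tested. As a sign of RNA and label quality, signal at the 3′ end was divided by that at the 5′ end. The ratio was 1.19 on array 1 and 1.22 on array 2 for beta-actin. It was 0.965 and 0.963 for Gapdh, and 5.18 and 4.32 for the transferrin receptor.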

How the data were processed

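Signal intensities of mouse spleen RNA on 2 arrays, 1 per probe set and array, were used as deposited by the authors, on a linear scale. With the lowest and highest 2% left out, the mean was 499.9 on both arrays, which shows a common scaling; the software that made the values is not given in the labels. Precision is limited by the number of arrays. Control probe sets, 66 of them, stayed out of percentiles and counts. Of the others 10833 named 1 gene, 396 several and 1193 none.

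Intensities were floored at the 20th percentile of their array (41.8 on both), then converted to log2. Log2 differences were centred on the median of bright probe sets, which was -0.0016. The pooled SD was checked on simulated data.

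Promoters came from RefSeq, assembly GRCm38.p6, matched by symbol. The gene identifiers of all 9 measured genes matched that assembly's table.

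The 10 genes and the lists were chosen with earlier results of these data known. Named were the 10 genes, the first 4 measured genes of each of 6 lists, and those on the rarer side of the cutoff where 5 or fewer. Orc4, Orc5 and Orc6 fall outside this rule and were named after their values were seen. Cdc6 and Cdt1 are named for their promoters, chosen after their values were seen. Gins3, Mcm8, Mcmbp and Orc3, which were not measured, are named for their promoters alone. Alternatives changed the floor, a pseudocount of 16, quantile normalization, centring, the cutoff, the probe set rule and the arrays used. Letting in probe sets that name several genes was added after the data were seen. Python 3.11.15, numpy 2.4.6, pandas 2.3.3 and matplotlib 3.10.9 were used.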

Additional observations from a re-analysis of the deposited data

Results flagged for a closer look

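Signal was present in 4 probe sets that name no single gene of the replication set, each brighter than every bacterial control. The 2 that name Tyms and Tyms-ps together gave 338.2 and 307.6 (93236_s_at), and 304.7 and 344.1 (93237_s_at). The 2 that name the pseudogene Tyms-ps alone gave 240.1 and 130.8 (100396_i_at), and 930.9 and 711.1 (100756_r_at, which was bright). A gene and its pseudogene can share probe sequences, and these signals cannot be divided between Tyms and Tyms-ps.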

How the results depend on the processing

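The count of bright genes among the 9 measured stayed at 8 on each array alone, with the cutoff at the 50th or 75th percentile or at the highest bacterial control, and without suffixed probe sets (_s_at, _x_at, _f_at, _r_at, _g_at or _i_at). It was 7 when probe sets of a gene were averaged, where Rrm1 was lost, and 8 of 10 once probe sets naming several genes were let in. The median log2 signal of the members, 10.19, was 10.16 to 10.21 on single arrays, 10.10 without suffixed probe sets and 9.62 with the mean over probe sets, where all genes had 7.92. With no floor 1 member, Mcm6, was more than 2-fold apart, by a log2 difference of 1.08 between values under the bacterial controls. With the mean over probe sets 2 of 7 bright members were higher on array 2. Of the lists, origin and helicase genes had 3 of 14 bright with the cutoff at the 75th percentile and 11 with it at the highest bacterial control, other nucleotide supply genes had 5 of 16 at the 75th percentile, and E2F and Rb genes had 1 of 9 at the 75th, 6 at the 50th, 8 at the highest bacterial control and 1 of 7 without suffixed probe sets. Of all genes 28.5% were bright at the 75th percentile, 55.7% at the 50th, 73.9% at the highest bacterial control and 43.4% without suffixed probe sets. The remaining 56 of 67 recomputed counts and medians stayed within 1.5 times or the spread between arrays. Of 45 recomputed log2 differences of single members 41 moved by less than the pooled SD, and the others were Mcm5 at -0.38 and Tk1 at 0.12 with the mean over probe sets, and Mcm6 without the floor or with the pseudocount. The shifts of Mcm6 arise from values under the floor, and the others from where the cutoff lies or which probe sets are read. No paired analysis was possible because there is 1 group. With 2 arrays, signals near the bacterial controls support neither a level nor a difference.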
